A study of Mus musculus with 9 samples.

Results

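Cells of the mammary gland are told apart, and sorted for transplantation, by proteins on their surface. The 9 genes described here encode such proteins: Cd24a (CD24), Epcam (EpCAM), Ceacam1 (CEACAM1), Kit (c-Kit), Prom1 (prominin-1, CD133), Ly6a (Sca-1), and the integrin subunits Itgb1 (CD29), Itgb3 (CD61) and Itga2 (CD49b). They were chosen by name, for their use in sorting mammary cells, and not by a rule on any value measured here. Earlier results of these data were known when they were chosen. All 9 were found on the array, as 9 of 20422 genes and as 141 of the 212138 probe sets that carry exactly 1 gene symbol.

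RNA was measured in 3 groups of 3 arrays each. D-ME-iPSC were induced pluripotent stem cells (iPSCs) made from mouse mammary epithelial (ME) cells of virgin females of 2 and 6 months, then differentiated towards mammary cells in 2 steps of 3 and 6 days. D-TF-iPSC were iPSCs made from tail-tip fibroblasts of mice of 2 months and taken through the same protocol, and both kinds of iPSC were made with retroviruses carrying 4 reprogramming factors. ME were freshly isolated mammary epithelial cells, the control. For implantation, the study used cells of all 3 kinds that carried a β-galactosidase gene, and the labels do not say whether the arrayed cells did. The sources used here do not give the strain, the age of the ME donors, the iPSC clones behind each array or whether the arrays of a group came from separate animals or cultures, so p-values measure the spread between these arrays, which may be technical. No group was sorted by these markers before the RNA was taken, as far as the methods say, and each array is a mixture of cells. A lower value can therefore come from fewer cells of a type or from less RNA per cell, which cannot be told apart.

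The luminal mammary epithelium, which lines the ducts and makes milk, carries high EpCAM, while the basal layer of myoepithelial and stem-like cells carries less EpCAM and more of the integrins that bind the basement membrane. In the mouse, medium CD24 together with high CD29 or high CD49f (Itga6) is used to enrich cells that rebuild a gland after transplantation, CD61, c-Kit and CD49b to enrich luminal progenitors, and Sca-1 and prominin-1 to enrich luminal cells with hormone receptors. The values below are of RNA and not of protein on the cell surface.

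The array labelled ME replicate 1 stood apart from the other ME arrays. Over all genes it correlated with the D-ME-iPSC arrays at r = 0.991 to 0.993, and with ME replicates 2 and 3 at only 0.920 and 0.943, while ME replicates 2 and 3 correlated with each other at 0.973. Results for the 9 markers against the ME group are therefore given with and without it. Array medians lay between 7.45 and 7.61 on the log2 scale. The labelled cell types were checked with marker genes. Of the luminal markers, keratins 8, 18 and 19 were higher in D-ME-iPSC than in the D-TF-iPSC arrays by log2 2.88, 2.95 and 3.42, and of the basal markers Krt5 and Krt14 by 3.63 and 2.76, while the basal contractile genes Acta2 and Cnn1 differed by -0.16 and 0.01 and were not called. The hormone receptor genes Esr1 and Pgr of the luminal list were not called either, with means of 7.28 and 7.51 in D-ME-iPSC. Their means in D-TF-iPSC were 7.29 and 7.88. Of 10 fibroblast markers, 5 were called lower in D-ME-iPSC than in the D-TF-iPSC arrays, the collagen genes Col1a1, Col1a2 and Col3a1 among them (-1.71, -1.94 and -1.80). Lum, a proteoglycan gene of the same list, differed by 0.66 (limma, adjusted p = 0.33) and was called higher without the array labelled ME replicate 1 (adjusted p = 0.0046).

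The 9 markers fell into 4 patterns. Cd24a, Epcam, Kit and Ceacam1 were high in D-ME-iPSC and all 3 ME arrays and low in D-TF-iPSC. Itga2, Prom1 and Itgb3 were high in D-ME-iPSC and in the array labelled ME replicate 1. For these, ME replicates 2 and 3 lay nearer to the D-TF-iPSC than to the D-ME-iPSC values. Itgb1 was lower in ME replicates 2 and 3 than in the other 7 arrays. Ly6a differed between no groups beyond its spread. Between the D-ME-iPSC and the D-TF-iPSC arrays, 7 of the 9 markers were called higher and none lower (limma, adjusted p under 0.05), against a background in which 13.3% of all genes were called, 6.83% higher and 6.45% lower (28.3%, 15.5% and 12.8% without the array labelled ME replicate 1, when again 7 of the 9 were higher). Between D-TF-iPSC and ME, 4 of the 9 were called lower and none higher, against 16.3% of all genes called, 7.5% lower and 8.78% higher. Omitting the array labelled ME replicate 1 gave 4 lower and 1 higher, against 39.1% of all genes called, 16.4% lower and 22.8% higher. Between D-ME-iPSC and ME, limma called 0 of the 9, and 0% of all genes. At an unadjusted limma p under 0.05 that comparison gave 3 of the 9 and 3857 genes, and the methods' Student's test gave 0 of the 9, adjusted or not. Omission of the array labelled ME replicate 1 gave 5 of the 9 called in D-ME-iPSC against ME, 4 higher and 1 lower, when 38.7% of all genes were called, 23.6% higher and 15.1% lower. The 3 arrays of one group lay wholly apart from those of the other for 8 of the 9 markers in D-ME-iPSC relative to D-TF-iPSC (against 48.4% of all genes), 5 of the 9 in D-TF-iPSC against ME (29.4%) and 2 of the 9 in D-ME-iPSC against ME (14.1%). The median difference of the 9 markers was 1.71 in the first of these comparisons, -0.81 in the second (-0.40 without the array labelled ME replicate 1) and 0.03 in the third, against -0.01 over all genes in each.

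**Figure D1:**
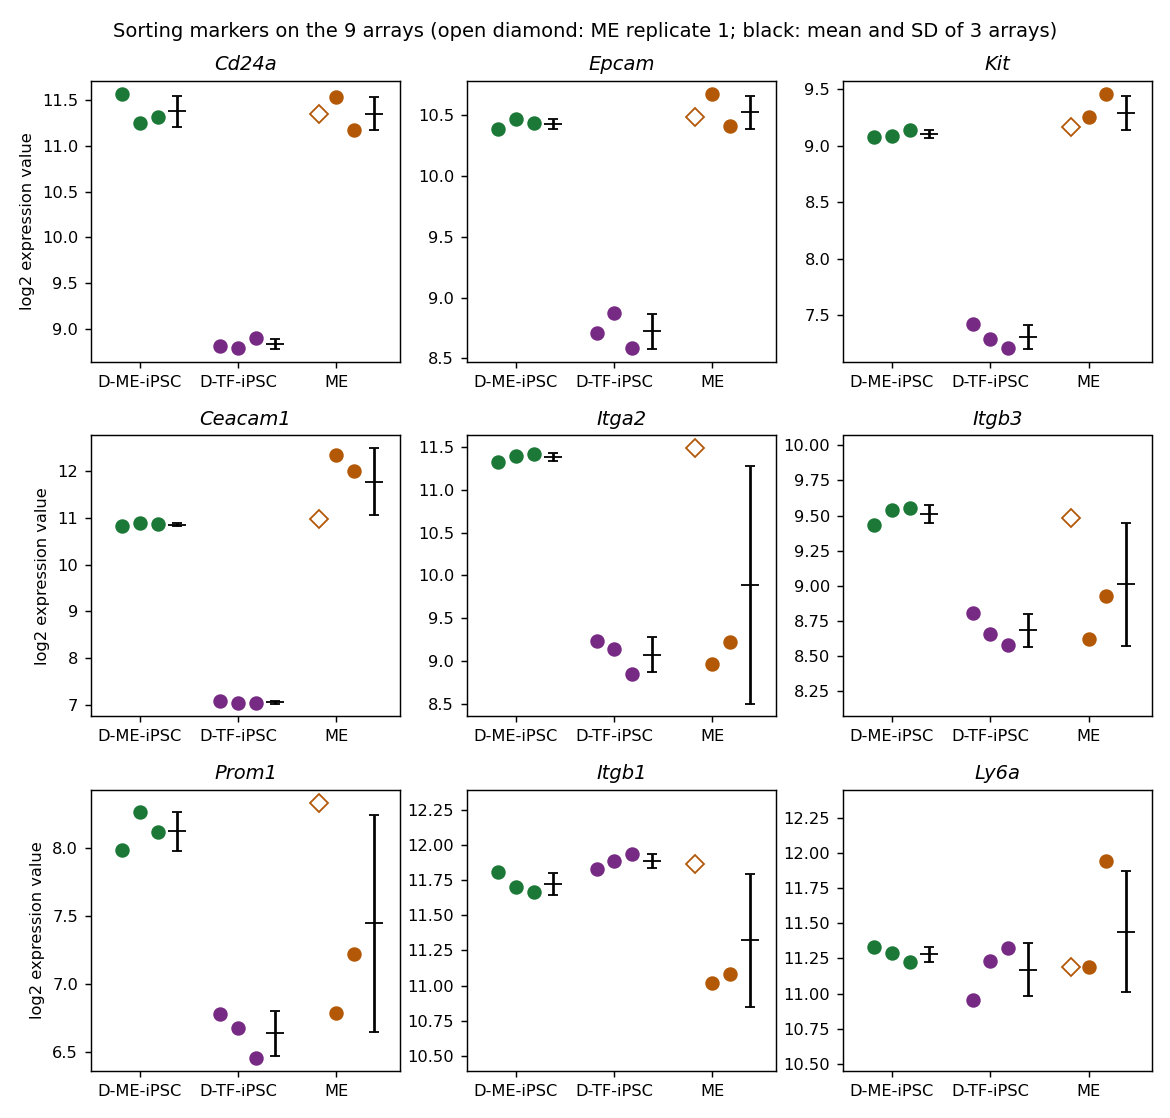
Each panel plots 1 marker, with the log2 expression value of each of the 9 arrays on the vertical axis and the groups D-ME-iPSC, D-TF-iPSC and ME from left to right; the open diamond is the array labelled ME replicate 1, and the black mark and bar are the mean and SD of 3 arrays. For Itga2, Itgb3 and Prom1 the open diamond lies with or next to the D-ME-iPSC arrays (for Itga2, D-ME-iPSC arrays at 11.33 to 11.42 and the diamond at 11.49), and the 2 other ME arrays lie nearer to the D-TF-iPSC than to the D-ME-iPSC arrays.

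To show the genes' own regulatory sequence, promoters were read from RefSeq (GRCm38.p6), whose table matched 6 of the 9 markers (Epcam, Kit, Ceacam1, Itga2, Prom1 and Itgb1). The 250 bases before the start site are printed 5′ to 3′ for 3 markers of the first pattern and, beside them, for Itga2 of the second. They are chr17:87635729-87635978 on the plus strand for Epcam, chr5:75574737-75574986 on the plus strand for Kit, chr7:25477626-25477875 on the minus strand for Ceacam1, and chr13:114932101-114932350 on the minus strand for Itga2. The Ceacam1 window lies before 1 start site, and the annotated span of the gene reaches into it, to base 25477647. Capitals mark CACCTG on either strand (its reverse complement reads CAGGTG), the E-box that repressors of epithelial genes of the Snai and Zeb families bind.
Epcam: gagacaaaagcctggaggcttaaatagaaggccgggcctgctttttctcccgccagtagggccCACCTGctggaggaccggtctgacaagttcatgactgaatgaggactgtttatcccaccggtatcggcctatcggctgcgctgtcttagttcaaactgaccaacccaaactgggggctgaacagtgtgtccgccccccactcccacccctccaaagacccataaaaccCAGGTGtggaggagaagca
Kit: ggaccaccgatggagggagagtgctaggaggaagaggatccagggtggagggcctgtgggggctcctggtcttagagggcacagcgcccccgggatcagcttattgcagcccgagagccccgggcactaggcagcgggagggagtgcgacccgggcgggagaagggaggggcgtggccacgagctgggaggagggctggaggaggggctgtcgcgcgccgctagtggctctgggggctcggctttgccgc
Ceacam1: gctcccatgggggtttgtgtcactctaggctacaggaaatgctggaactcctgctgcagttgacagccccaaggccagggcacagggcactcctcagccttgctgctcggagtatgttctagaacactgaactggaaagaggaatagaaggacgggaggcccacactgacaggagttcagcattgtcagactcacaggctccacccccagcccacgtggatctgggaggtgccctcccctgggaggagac
Itga2: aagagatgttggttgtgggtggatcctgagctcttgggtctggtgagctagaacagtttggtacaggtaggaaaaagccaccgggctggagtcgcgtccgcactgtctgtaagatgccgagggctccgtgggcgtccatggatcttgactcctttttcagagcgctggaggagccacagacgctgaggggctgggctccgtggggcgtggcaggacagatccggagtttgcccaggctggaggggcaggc
The Epcam window held 2 such matches and the Kit, Ceacam1 and Itga2 windows held 0, when 17.2% of 32851 windows of this length held at least 1. GGGCGG, the GC box of Sp factors, was found once each in the Epcam and Kit windows, and in 32.7% of all windows, on either strand. GCCNNNGGC, an AP-2 motif, was found once each in the Kit and Itga2 windows, and in 13.7% of all windows. The windows of Prom1, of the second pattern, and of Itgb1 are not printed. For Prom1, start site 1 had 1 CACCTG match and 1 GC box, and start site 2 had 0 of each. The Itgb1 window held 0 CACCTG matches and 1 GC box. A match is a description of these letters and not a site, and none of the 3 motifs was found in all 4 printed windows, or in all 3 of the first pattern.

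Cd24a, which encodes a small glycoprotein anchored to the membrane by lipid, had values of 11.57, 11.25 and 11.32 in D-ME-iPSC cells, 8.81, 8.79 and 8.90 in D-TF-iPSC and 11.35, 11.54 and 11.17 in ME replicates 1, 2 and 3. All D-ME-iPSC and ME arrays lay above all D-TF-iPSC arrays, and D-ME-iPSC and ME overlapped. D-ME-iPSC exceeded D-TF-iPSC by log2 2.55 (SE 0.13), a 5.85-fold difference in linear value (limma, adjusted p = 8.7e-06). D-TF-iPSC fell below ME by log2 -2.52 (SE 0.13, adjusted p = 8.6e-06), and the value was also -2.52 without the array labelled ME replicate 1. The difference between D-ME-iPSC and ME was 0.03, with a 95% interval of -0.26 to 0.31, and 0.02 without the array labelled ME replicate 1. Only 2 probe sets measured Cd24a alone, and both were called higher in D-ME-iPSC than in the D-TF-iPSC arrays, by 3.53 and 1.57.

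Epcam encodes a homotypic adhesion molecule of epithelial cells. Its values were 10.39, 10.47 and 10.43 in D-ME-iPSC cells, 8.71, 8.87 and 8.58 in D-TF-iPSC and 10.49, 10.68 and 10.41 in ME, so that the D-TF-iPSC arrays again stood alone. D-ME-iPSC exceeded D-TF-iPSC by 1.71 (SE 0.11, adjusted p = 2.5e-05, 3.26-fold), and the difference between D-TF-iPSC and ME was -1.80 (SE 0.11, adjusted p = 2.0e-05; -1.82 without the array labelled ME replicate 1). Epcam differed by -0.10 between D-ME-iPSC and ME, with a 95% interval of -0.35 to 0.16, and by -0.11 without the array labelled ME replicate 1. The median difference of its probe sets between the D-ME-iPSC and the D-TF-iPSC arrays was 1.96, against 1.71 for their mean. Of 11 probe sets, 8 were called higher in D-ME-iPSC than in the D-TF-iPSC arrays (by 1.45 to 2.98), when 2.84% of all probe sets were higher and 2.48% lower, and the other 3, the first in the order of the identifiers, differed by -0.43, -0.14 and 0.69. The first of these 3 read 5.02, 5.37 and 5.45 in D-ME-iPSC cells, 5.26, 6.05 and 5.83 in D-TF-iPSC and 5.19, 4.84 and 4.81 in ME, and the second lay between 8.79 and 9.10 in all 9 arrays.

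EpCAM sits in the membrane with claudin-7, tetraspanins and CD44, and 7 genes of such partners were measured. Between the D-ME-iPSC and the D-TF-iPSC arrays, 3 of the 7 were called higher and 0 lower, with a median difference of 0.76 against -0.01 over all genes. The counts of this list and of those that follow stand beside the shares of all genes given above, which were 6.83% higher and 6.45% lower in this comparison, and 8.78% higher and 7.5% lower in D-TF-iPSC against ME. Without the array labelled ME replicate 1 these shares were 15.5% and 12.8%, and 22.8% and 16.4%, and in D-ME-iPSC against ME 23.6% and 15.1%. Cldn7, a tight-junction protein, was higher in D-ME-iPSC by 1.66 (adjusted p = 0.0022), the tetraspanin gene Cd82 by 0.81 (adjusted p = 0.016) and the tetraspanin gene Cd9 by 0.76 (adjusted p = 0.0025). When the array labelled ME replicate 1 was left out, 5 of the 7 were called higher in this comparison, Cd44 and Cd151 among them, and Cd81 was called lower. Cd44, the hyaluronan receptor, read 11.97, 11.96 and 11.91 in D-ME-iPSC cells, 10.91, 10.93 and 10.88 in D-TF-iPSC and 12.05, 10.08 and 10.12 in ME. D-ME-iPSC and the array labelled ME replicate 1 were thus high, D-TF-iPSC was lower, and ME replicates 2 and 3 were lower still. Between the D-ME-iPSC and the D-TF-iPSC arrays, Cd44 differed by 1.04 (adjusted p = 0.18, and 5.9e-06 without the array labelled ME replicate 1). Between D-TF-iPSC and ME, 3 of the 7 were called lower and 1, Cd81, higher (3 lower and 3 higher without the array labelled ME replicate 1). Between D-ME-iPSC and ME none of the 7 was called, and without the array labelled ME replicate 1 there were 5 higher and 0 lower.

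Ceacam1, a cell adhesion molecule of the immunoglobulin superfamily found on the apical side of epithelia, showed the largest difference of the 9 markers in both comparisons with D-TF-iPSC. Its values were 10.82, 10.88 and 10.87 in D-ME-iPSC cells, 7.09, 7.05 and 7.03 in D-TF-iPSC, and 10.97, 12.34 and 12.00 in ME. The 3 groups did not overlap, and ME replicates 2 and 3 were above all other arrays. D-ME-iPSC exceeded D-TF-iPSC by 3.80 (SE 0.29, 13.9-fold, adjusted p = 5.3e-05), and D-TF-iPSC lay below ME by -4.72 (SE 0.29, 26.3-fold, adjusted p = 1.7e-05; -5.12 without the array labelled ME replicate 1). The difference between D-ME-iPSC and ME was -0.91 (adjusted p = 0.25), although their arrays did not overlap. It was -1.32 without the array labelled ME replicate 1 (adjusted p = 2.0e-05, a 2.49-fold difference). Of 8 probe sets, 7 were called higher in D-ME-iPSC than in the D-TF-iPSC arrays, and 8 were called lower in D-TF-iPSC than in ME, when 3.55% of all probe sets were and 3.82% were higher. The probe set not called in the first comparison, the fifth in order, read 7.34, 7.24 and 7.05 in D-ME-iPSC cells, 6.27, 6.41 and 6.20 in D-TF-iPSC and 7.33, 9.61 and 9.37 in ME. Between D-ME-iPSC and ME without replicate 1, 6 of the 8 were called lower, when 5.39% of all probe sets were.

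Ceacam2, the closest relative of Ceacam1 in the mouse, read 6.16, 6.21 and 6.22 in D-ME-iPSC cells, 6.22, 6.00 and 6.12 in D-TF-iPSC and 6.44, 7.06 and 7.60 in ME. It did not follow Ceacam1 in D-ME-iPSC. The difference from D-TF-iPSC was 0.08 (adjusted p = 0.92), and that between D-TF-iPSC and ME was -0.91 (adjusted p = 0.031; -1.21 without the array labelled ME replicate 1). Ceacam10, another relative, was highest in ME replicates 2 and 3, at 7.84 and 6.31, and was called lower in D-ME-iPSC than in ME (by -1.59, adjusted p = 0.0054) only without the array labelled ME replicate 1. The differences and intervals of all 9 markers are plotted for the 3 comparisons.

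**Figure D2:**
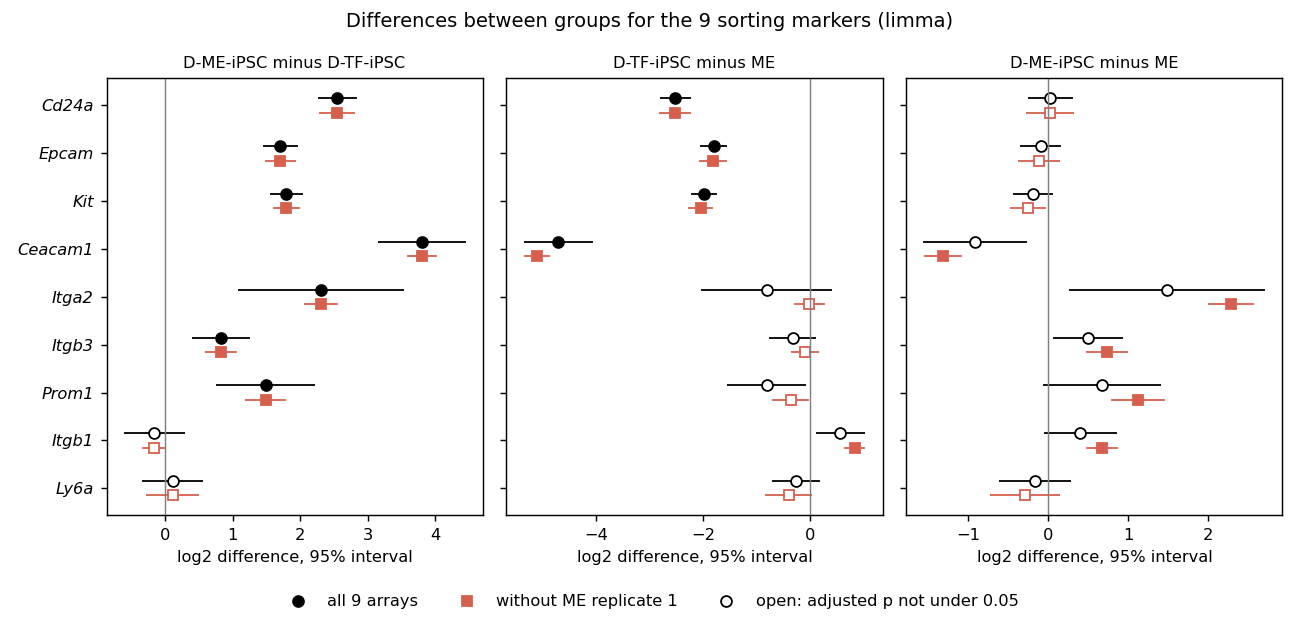
Horizontal axes give the log2 difference between the groups named above each panel with its 95% interval (limma), for each marker on the vertical axis; black circles use all 9 arrays, red squares leave out the array labelled ME replicate 1, and open symbols had an adjusted p not under 0.05. Between the D-ME-iPSC and the D-TF-iPSC arrays the estimates are the same and the intervals differ in width, while between D-ME-iPSC and ME the Itga2 estimate is 1.49 with all arrays and 2.29 without that array.

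Kit encodes the receptor tyrosine kinase for stem cell factor. Its values were 9.07, 9.09 and 9.14 in D-ME-iPSC cells, 7.42, 7.28 and 7.21 in D-TF-iPSC and 9.16, 9.25 and 9.46 in ME. D-TF-iPSC was low and did not overlap the other arrays, and all 3 ME arrays lay slightly above all D-ME-iPSC arrays. D-ME-iPSC exceeded D-TF-iPSC by 1.80 (SE 0.11, 3.47-fold, adjusted p = 1.7e-05), and the difference between D-TF-iPSC and ME was -1.99 (SE 0.11, adjusted p = 1.1e-05; -2.05 without the array labelled ME replicate 1). Kit differed by -0.19 between D-ME-iPSC and ME, with a 95% interval of -0.44 to 0.06 (adjusted p = 0.35, and 0.075 without the array labelled ME replicate 1, at -0.26). The change ran along the gene, since 21 of 23 probe sets were called higher in D-ME-iPSC than in the D-TF-iPSC arrays and 22 of 23 lower in D-TF-iPSC than in ME. Mast cells also express Kit, and markers of mast cells moved between the ME arrays. Cpa3 read 5.64, 5.32 and 5.61 in D-ME-iPSC cells, 5.84, 5.56 and 5.66 in D-TF-iPSC and 5.92, 8.26 and 7.70 in ME. The mean of the 6 mast cell markers was 5.41 to 5.55 in D-ME-iPSC, 5.45 to 5.55 in D-TF-iPSC, 5.45 in the array labelled ME replicate 1, and 6.43 and 6.21 in ME replicates 2 and 3. None of the 6 was called with all arrays, and 3 (Cpa3, Mcpt4 and Cma1) were called lower in D-ME-iPSC than in ME without replicate 1. Their part in the Kit values was not tested.

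The ligand did not follow its receptor. Kitl, which encodes stem cell factor, read 7.94, 8.02 and 8.08 in D-ME-iPSC cells, 7.93, 8.05 and 7.89 in D-TF-iPSC and 8.06, 9.55 and 9.63 in ME. Only ME replicates 2 and 3 stood above the rest. Kitl differed by 0.06 between the D-ME-iPSC and the D-TF-iPSC arrays (adjusted p = 0.96), and by -1.07 between D-ME-iPSC and ME (adjusted p = 0.25), or -1.58 without the array labelled ME replicate 1 (adjusted p = 3.4e-06). Between D-TF-iPSC and ME it was -1.12 (adjusted p = 0.061), or -1.63 without that array (adjusted p = 1.2e-06). Of the 11 genes found among Kitl and the adaptors, phosphatases and inhibitors that act on Kit signals (Lyn was not analysed here), 0 were called between the D-ME-iPSC and the D-TF-iPSC arrays and 0 between D-ME-iPSC and ME. In D-TF-iPSC against ME, 1 was called, Sh2b3, which encodes an inhibitory adaptor and was higher by 0.52 (adjusted p = 0.017). Leaving out the array labelled ME replicate 1, 5 of the 11 were called between D-ME-iPSC and ME, 3 higher and 2 lower, a share near that of all genes (38.7%). That omission also gave 2 higher and 1 lower in D-ME-iPSC relative to D-TF-iPSC, and 3 higher and 3 lower in D-TF-iPSC against ME. The 5 called between D-ME-iPSC and ME without that array included the phosphatase gene Ptpn11 (1.12, adjusted p = 1.3e-05) and the docking protein gene Gab2 (-0.99, adjusted p = 4.3e-04).

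Itga2 encodes the integrin α2 subunit, which pairs with β1 to form a collagen receptor. Its values were 11.33, 11.39 and 11.42 in D-ME-iPSC and 9.24, 9.14 and 8.85 in D-TF-iPSC. In ME they were 11.49, 8.96 and 9.22 for replicates 1, 2 and 3, so the array labelled ME replicate 1 lay above every D-ME-iPSC array, and the other 2 lay within the range of D-TF-iPSC. The SD was 0.05 in the D-ME-iPSC arrays and 0.20 in the D-TF-iPSC arrays, against 1.39 in ME. D-ME-iPSC exceeded D-TF-iPSC by 2.31 (SE 0.54, 4.94-fold, adjusted p = 0.022, and 8.3e-07 without the array labelled ME replicate 1). Between D-ME-iPSC and ME the difference was 1.49 (adjusted p = 0.25). Without that array it was 2.29 (SE 0.13, adjusted p = 2.8e-06), and between D-TF-iPSC and ME it was then -0.02, with a 95% interval of -0.30 to 0.27, against -0.81 with all arrays (adjusted p = 0.38). All 28 probe sets were higher in D-ME-iPSC than in the D-TF-iPSC arrays, 12 of them called, and all 28 were called without the array labelled ME replicate 1, when 6.32% of all probe sets were called higher and 4.84% lower. Without it, 3 of the 28 were called lower in D-TF-iPSC than in ME, when 7.37% of all probe sets were. All 28 were likewise called higher in D-ME-iPSC than in ME without that array, when 13.1% of all probe sets were.

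Itgb3, the β3 subunit (CD61), which pairs with the αV subunit in epithelial cells, was also high in D-ME-iPSC and in the array labelled ME replicate 1, with smaller differences between groups. Its values were 9.43, 9.54 and 9.55 in D-ME-iPSC cells, 8.81, 8.66 and 8.58 in D-TF-iPSC and 9.49, 8.62 and 8.93 in ME. For Itgb3, D-ME-iPSC exceeded D-TF-iPSC by 0.83 (SE 0.19, 1.77-fold, adjusted p = 0.021, and 2.8e-04 without the array labelled ME replicate 1), and 6 of 16 probe sets were called. Itgb3 differed by 0.50 between D-ME-iPSC and ME (adjusted p = 0.25), or 0.74 without that array (adjusted p = 8.6e-04). Between D-TF-iPSC and ME it was -0.33 (adjusted p = 0.31), or -0.09 without that array (adjusted p = 0.57). Itgav, the αV partner, did not move with it between the iPSC groups, at 11.35 to 11.39 in D-ME-iPSC and 11.29 to 11.47 in D-TF-iPSC. Its difference between the D-ME-iPSC and the D-TF-iPSC arrays was -0.03 (adjusted p = 0.94). Within ME, Itgav read 11.48, 11.14 and 11.12 in replicates 1, 2 and 3, so that it was higher in replicate 1, as Itgb3 was.

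Prom1 encodes a protein of membrane protrusions that spans the membrane several times. Its values were 7.98, 8.27 and 8.12 in D-ME-iPSC cells, 6.78, 6.67 and 6.45 in D-TF-iPSC and 8.33, 6.79 and 7.22 in ME. D-ME-iPSC and the array labelled ME replicate 1 were high. ME replicate 2 lay just above the D-TF-iPSC arrays, and ME replicate 3 lay between the D-TF-iPSC and the D-ME-iPSC arrays. Prom1 in D-ME-iPSC exceeded that in D-TF-iPSC by 1.49 (SE 0.33, 2.80-fold, adjusted p = 0.016, and 3.6e-05 without the array labelled ME replicate 1). Prom1 differed by 0.68 between D-ME-iPSC and ME (adjusted p = 0.28), or by 1.12 without that array (adjusted p = 3.5e-04). Between D-TF-iPSC and ME it was -0.81 (adjusted p = 0.13), or -0.37 without that array (adjusted p = 0.084). Of 31 probe sets, 11 were called higher in D-ME-iPSC than in the D-TF-iPSC arrays and 29 had a positive difference. Prom2, its paralogue, differed by 0.60 between the D-ME-iPSC and the D-TF-iPSC arrays (adjusted p = 0.061) and by -0.75 between D-TF-iPSC and ME (adjusted p = 0.021), with 6.86 and 7.16 in ME replicates 2 and 3 against 6.56 in the array labelled ME replicate 1.

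The calls of Itga2, Itgb3 and Prom1 between the D-ME-iPSC and the D-TF-iPSC arrays depended on which arrays entered the fit. Leaving out any 1 of the 6 arrays of these groups gave adjusted p-values of 0.065 to 0.089 for Itga2 and 0.053 to 0.090 for Itgb3. For Prom1 the call was lost without replicate 2 or 3 of either group, with adjusted p-values of 0.057 to 0.072. Over these omissions the differences stayed between 2.19 and 2.39 for Itga2, 0.77 and 0.89 for Itgb3, and 1.40 and 1.56 for Prom1. In each of these fits the spread was pooled with that of the 3 ME arrays. Fitted to the 6 arrays compared alone, all 3 were called, with adjusted p-values of 4.2e-07 for Itga2, 4.4e-05 for Itgb3 and 6.9e-06 for Prom1.

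Itgb1 encodes the β1 subunit, the common partner of most α subunits, α2 and α6 included. It was the one marker of the 9 that was not higher in D-ME-iPSC than in the D-TF-iPSC arrays in its mean, with 11.81, 11.70 and 11.66 in D-ME-iPSC cells, 11.83, 11.89 and 11.93 in D-TF-iPSC and 11.87, 11.02 and 11.08 in ME. The difference between the D-ME-iPSC and the D-TF-iPSC arrays was -0.16, with a 95% interval of -0.62 to 0.29 (adjusted p = 0.75), and none of 19 probe sets was called. ME replicates 2 and 3 were lower than all other arrays. Without the array labelled ME replicate 1, D-ME-iPSC exceeded ME by 0.67 (adjusted p = 2.9e-04) and D-TF-iPSC exceeded ME by 0.84 (adjusted p = 6.0e-05). Of the 19 probe sets, 13 were then called higher in D-ME-iPSC than in ME, and 15 in D-TF-iPSC, when 13.1% of all probe sets were called higher in each comparison. With all arrays these differences were 0.40 (adjusted p = 0.30) and 0.56 (adjusted p = 0.094).

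Ly6a encodes Sca-1, a lipid-anchored protein first used to enrich blood stem cells of the mouse. Its values were 11.33, 11.29 and 11.22 in D-ME-iPSC cells, 10.96, 11.23 and 11.32 in D-TF-iPSC and 11.19, 11.19 and 11.94 in ME. The groups overlapped, and ME replicate 3 alone stood above the rest. The difference between the D-ME-iPSC and the D-TF-iPSC arrays was 0.11 (95% interval -0.34 to 0.56, adjusted p = 0.84), that between D-TF-iPSC and ME -0.27 (-0.72 to 0.18, adjusted p = 0.43), and that between D-ME-iPSC and ME -0.16 (-0.61 to 0.29, adjusted p = 0.68). Without the array labelled ME replicate 1, the last 2 were -0.40 and -0.29 (adjusted p = 0.14 and 0.27). These values rest on 3 probe sets, none of which was called in any comparison, with or without that array. Another 5 probe sets on the array are shared with Ly6c1 or Ly6c2 and were left out. Relatives of Ly6a did differ: Ly6d, a marker of luminal and lymphoid cells in the mouse, was higher in D-ME-iPSC than in the D-TF-iPSC arrays by 1.19 (adjusted p = 8.0e-04), Ly6e by 0.93 (adjusted p = 0.0089) and Lypd3 by 0.78 (adjusted p = 0.0010), and Ly6k was lower (-0.66, adjusted p = 0.0019). Of all 15 paralogues of the markers that were found, 3 were called higher and 1 lower in that comparison, with a median of 0.08 (5 higher and 1 lower when the array labelled ME replicate 1 was omitted). In D-TF-iPSC against ME, 1 was called higher and 4 lower (1 and 7 without that array), and in D-ME-iPSC against ME, 0 were called (2 higher and 5 lower when the array labelled ME replicate 1 was left out).

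**Figure D3:**
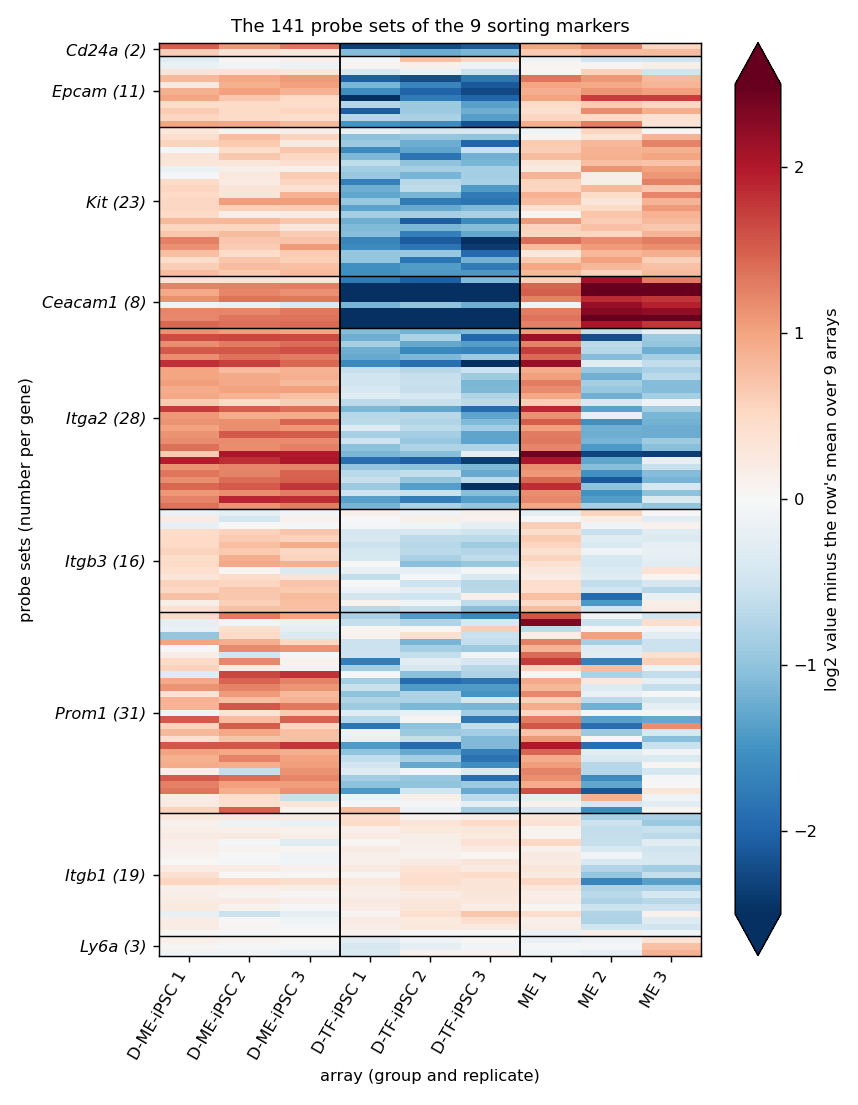
Each row is 1 of the 141 probe sets of the 9 markers, grouped by gene with the number of probe sets in brackets, and each column 1 array; the colour is the log2 value minus the row's mean over the 9 arrays. The columns of D-TF-iPSC are blue through nearly all rows of Kit (21 of 23 probe sets called higher in D-ME-iPSC) and 8 of 11 of Epcam, and the rows of Itga2 change colour between ME 1 and the 2 other ME arrays.

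Since CD29, CD61 and CD49b work as pairs, the other integrin subunits were set beside them. Of 17 other α subunit genes, 2 were called higher and 4 lower in D-ME-iPSC than in the D-TF-iPSC arrays, and of 7 other β genes, 3 were called higher and 3 lower. The 2 α genes called higher encode laminin receptors. Itga6 (CD49f) read 10.99, 10.98 and 10.92 in D-ME-iPSC cells, 9.57, 9.62 and 9.66 in D-TF-iPSC and 11.12, 10.77 and 11.10 in ME, the pattern of Cd24a and Kit. It differed by 1.34 between the D-ME-iPSC and the D-TF-iPSC arrays (adjusted p = 1.0e-04) and by -1.38 between D-TF-iPSC and ME (adjusted p = 8.3e-05; -1.31 without the array labelled ME replicate 1). Itga3 read 10.40, 10.51 and 10.49 in D-ME-iPSC cells, 8.39, 8.25 and 8.20 in D-TF-iPSC and 10.36, 8.71 and 8.46 in ME, the pattern of Itga2, with a difference of 2.18 between the D-ME-iPSC and the D-TF-iPSC arrays (adjusted p = 0.0071). Itgb4, which pairs with α6 in hemidesmosomes, was higher in D-ME-iPSC by 1.55 (adjusted p = 0.011), Itgb6, an epithelial partner of αV, by 3.06 (adjusted p = 0.0018) and Itgb8 by 1.43 (adjusted p = 6.4e-05).

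The 7 integrin genes called lower in D-ME-iPSC than in the D-TF-iPSC arrays included collagen and fibronectin receptors. Itga11, a collagen receptor subunit of fibroblasts, read 7.34, 7.15 and 7.15 in D-ME-iPSC cells, 9.64, 9.74 and 9.82 in D-TF-iPSC and 7.28, 7.32 and 7.64 in ME, a difference of -2.53 between the D-ME-iPSC and the D-TF-iPSC arrays (adjusted p = 7.6e-06). The collagen receptor subunit Itga1 differed by -1.10 (adjusted p = 0.0056), Itga4 by -0.96 (adjusted p = 0.0053), Itgam of myeloid cells by -1.04 (adjusted p = 0.0011), Itgb2 of white blood cells by -0.63 (adjusted p = 0.012) and Itgb5 by -0.96 (adjusted p = 0.020). Itgbl1, a secreted protein related to β integrins, differed by -2.71 (adjusted p = 0.030), and ME replicates 2 and 3 were at 8.69 and 8.86, against 5.74 in the array labelled ME replicate 1. In D-TF-iPSC against ME, 5 α genes were called higher and 1 lower, and 2 β genes higher and 2 lower (6 and 3 α genes, and 2 and 4 β genes, without the array labelled ME replicate 1). In D-ME-iPSC against ME none of the 24 was called. When the array labelled ME replicate 1 was left out, 2 α genes were higher and 2 lower, and 3 β genes higher and 2 lower.

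Among 13 genes whose proteins link integrins to actin or activate them, 1 was called higher and 1 lower in D-ME-iPSC than in the D-TF-iPSC arrays. Paxillin (Pxn) was higher by 0.71 (adjusted p = 0.0018) and talin 2 (Tln2) was lower (-0.75, adjusted p = 0.0054). Fermt1, the kindlin of epithelial cells, read 10.65, 10.56 and 10.54 in D-ME-iPSC cells, 7.76, 7.80 and 7.48 in D-TF-iPSC and 10.76, 6.33 and 7.58 in ME. Like Itga2 it was high in D-ME-iPSC and in the array labelled ME replicate 1, with a difference of 2.91 between the D-ME-iPSC and the D-TF-iPSC arrays (adjusted p = 0.062, and 2.9e-05 without the array labelled ME replicate 1). In D-TF-iPSC against ME 2 of the 13 were called higher and 1 lower (6 and 2 without that array), and in D-ME-iPSC against ME 0 were called. Leaving out the array labelled ME replicate 1, 7 of the 13 were called higher and 1 lower in D-ME-iPSC than in ME. Ilk, the integrin-linked kinase, was among them, at 1.43 (adjusted p = 0.0014), as were Parva (1.19, adjusted p = 1.6e-05) and Tln1 (0.82, adjusted p = 0.0015).

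Of 23 other surface genes used to sort mammary cells, 8 were called higher and 1 lower in D-ME-iPSC than in the D-TF-iPSC arrays, with a median of 0.60 (13 higher and 4 lower when the array labelled ME replicate 1 was omitted). Itga5, Itga6, Cd44 and Tspan8 of these 23 were also counted in the lists above, so the counts of the lists are not independent. Cdh1, the E-cadherin gene, read 11.70, 11.57 and 11.57 in D-ME-iPSC cells, 9.57, 9.46 and 9.29 in D-TF-iPSC and 11.65, 11.70 and 11.36 in ME, and differed by 2.17 between the D-ME-iPSC and the D-TF-iPSC arrays (adjusted p = 1.3e-05). Cd14, a marker of luminal progenitors in the mouse, was higher in D-ME-iPSC by 2.14 (adjusted p = 7.4e-05), the mucin gene Muc1 by 1.53 (adjusted p = 7.4e-05), the complement regulator gene Cd55 by 1.47 (adjusted p = 9.5e-04) and the peptidase genes Anpep (CD13) and Mme (CD10) by 1.27 and 1.23 (adjusted p = 0.0011 and 5.6e-04). These genes, like Cd24a, were as high in ME, with differences between D-ME-iPSC and ME of -0.70 to 0.05 and none called. The exception was Cd55 without the array labelled ME replicate 1, which was lower in D-ME-iPSC than in ME by -0.88 (adjusted p = 0.0012). Lgr5, which encodes an R-spondin receptor of stem cells, was lower in D-ME-iPSC than in the D-TF-iPSC arrays by -1.81 (adjusted p = 0.0014). In D-TF-iPSC against ME, 4 of the 23 were called higher and 9 lower (7 higher and 10 lower without that array). Procr, used to enrich multipotent basal cells, read 9.52 to 9.66 in D-ME-iPSC, 8.92 to 9.21 in the D-TF-iPSC arrays, 9.49 in the array labelled ME replicate 1, and 11.09 and 12.13 in ME replicates 2 and 3, which stood above the rest. In D-ME-iPSC against ME, 0 of the 23 were called, and 8 higher and 2 lower when the array labelled ME replicate 1 was left out.

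**Figure D4:**
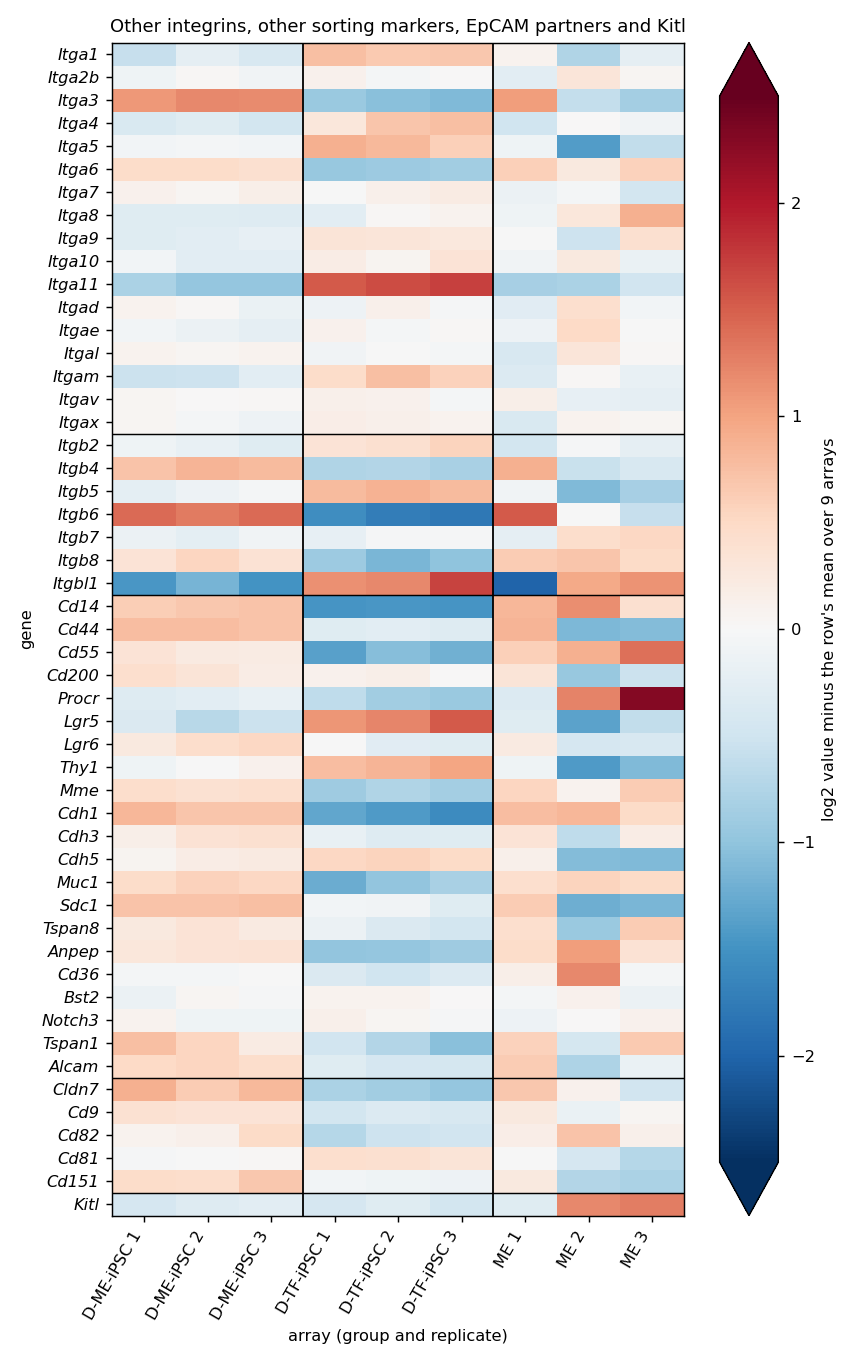
Each row is 1 of 51 genes (from the top, other integrin α subunits, other β subunits, other markers used for sorting, EpCAM partners, and Kitl) and each column 1 array; the colour is the log2 value minus the row's mean over the 9 arrays. Itga6, Mme, Cdh1 and Muc1 are low in D-TF-iPSC only, Itga3, Itgb4 and Cd44 change colour between ME 1 and the other ME arrays, and Itga11 is red in D-TF-iPSC only (9.64 to 9.82).

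Cells that carry lineage markers of blood, vessel and stroma are usually removed before mammary cells are sorted, and 8 of 9 such genes were found (Ly76 was not analysed here). Ptprc, Pecam1, Cdh5, Itgam, Pdgfra and Pdgfrb among them also stand in other lists. None of the 8 was called higher and 3 were called lower in D-ME-iPSC than in the D-TF-iPSC arrays: Pdgfra (-1.63, adjusted p = 7.1e-05), Itgam (-1.04) and Ptprb (-0.53, adjusted p = 0.0097). Without the array labelled ME replicate 1, 7 of the 8 were called lower. In D-TF-iPSC against ME, 6 of the 8 were called higher and 0 lower. Markers of cell types also differed between arrays, in patterns that were not the same for each list. The mean of 9 luminal markers (9 of 11 listed were found) was 9.66 to 9.73 in D-ME-iPSC, 7.66 to 7.82 in D-TF-iPSC, 9.66 in the array labelled ME replicate 1 and 10.80 and 10.76 in ME replicates 2 and 3, and 6 of the 9 were called higher in D-ME-iPSC than in the D-TF-iPSC arrays. The luminal genes were split too. Csn2, Csn3 and Elf5 averaged 12.3, 11.0 and 11.1 in ME replicates 2 and 3, against 8.7, 9.0 and 8.6 in D-ME-iPSC. Gata3, Esr1 and Pgr averaged 10.1, 7.7 and 8.0, against 9.3, 7.3 and 7.5. Krt8, Krt18 and Krt19 averaged 12.9, 12.8 and 11.1, against 13.0, 12.8 and 11.0. The mean of 8 basal markers was 10.70 to 10.73 in D-ME-iPSC, 8.96 to 9.11 in D-TF-iPSC, 10.68 in the array labelled ME replicate 1, and 9.62 and 10.48 in ME replicates 2 and 3, with 5 of 8 called higher in D-ME-iPSC than in the D-TF-iPSC arrays. The mean of 10 fibroblast markers was 9.12 to 9.17 in D-ME-iPSC and 10.34 to 10.42 in D-TF-iPSC. In ME replicates 1, 2 and 3 it was 9.10, 9.15 and 9.60. Of the 10, 5 were called lower in D-ME-iPSC than in the D-TF-iPSC arrays. This mean hid a split by gene. Dpt, Lum and Dcn read 11.5, 10.3 and 12.4 in ME replicate 2, and 12.0, 10.8 and 12.7 in replicate 3. Their D-TF-iPSC means were 9.3, 8.2 and 11.5, and ME replicate 1 read 8.1, 9.0 and 11.2. Setting D-TF-iPSC against ME without that array gave 7 of the 10 higher and 3 lower. The mean of 7 white blood cell markers (7 of 9 found) was 6.86 to 6.91 in D-ME-iPSC and 7.94 to 8.19 in D-TF-iPSC, against 6.90, 7.78 and 7.10 in ME, with 3 of 7 called lower in D-ME-iPSC (Lyz2 by -3.07). The mean of 7 endothelial markers was 8.18 to 8.32 in D-ME-iPSC, 8.34 to 8.45 in D-TF-iPSC, 8.36 in the array labelled ME replicate 1, and 7.43 and 7.55 in ME replicates 2 and 3, and none was called in the first comparison. Of these lists, 7 luminal and 5 basal markers were called lower when D-TF-iPSC was set against ME, and 7 fibroblast, 3 white blood cell and 3 endothelial markers higher, with 1 fibroblast marker lower. When the array labelled ME replicate 1 was left out, the calls in D-ME-iPSC relative to D-TF-iPSC were 8 lower and 1 higher of the fibroblast, 5 lower of the white blood cell and 3 lower of the endothelial markers. In D-ME-iPSC against ME none of these markers was called, and without the array labelled ME replicate 1 there were 5 luminal markers lower, 4 basal and 5 endothelial markers higher, 3 fibroblast markers higher and 3 lower, and 1 white blood cell marker higher and 3 lower. No marker can be called absent, since the values carry no detection calls. The part of these cell types in the values of the 9 sorting markers was not tested.

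As a description, the genes whose values followed each marker most closely over the 9 arrays, among 2662 genes with an SD of at least 0.5, were listed by Pearson's r. The points share the division into groups, so high values follow from a common order of groups. Cd24a was closest to Rab25, Marveld2 and Clca2 (r of 0.995 to 0.996), Epcam to Esrp1, Lcn2 and Dsg2 (0.997 to 0.998) and Kit to Cgn, Cldn1 and Fos (0.996 to 0.998). Ceacam1 was closest to Csn1s1, a casein gene, Fgd6 and Car2 (0.996 to 0.998). Itga2 was closest to Tuba4a, Rdh10 and Eef1e1 (0.996 to 0.998), Itgb3 to Smpdl3b, Plxnb1 and Gpr126 (0.990 to 0.995), Prom1 to Unc13b, Trpm6 and Gabrp (0.992 to 0.995) and Itgb1 to Mamdc2, Myadm and Rnf170 (0.990 to 0.991). Ly6a had no neighbour as close, with Snord58b, Actc1 and Serpinb11 at 0.901 to 0.904.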

How the data were processed

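Total RNA of 9 cell samples was labelled with biotin and measured on an Affymetrix mouse gene array. The deposited values, on the log2 scale, give 1 value for each exon-level probe set and array, corrected for background, normalized and summarised by the authors with RMA and Partek, as the submitters' processing notes name them, with versions and settings not given in the sources used here. Log2 values ranged from 2.56 to 14.4. Of 241576 probe sets, 212138 with exactly 1 gene symbol were used, while 4672 with several and 24766 with none were not. Probe sets of a gene were averaged (20422 genes, median 8 probe sets), so levels were compared between arrays and never between genes.

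Groups came from the labels. The 9 arrays were fitted together, each group having its own mean, in R 4.3.3 with limma 3.58.1. A call needed a p under 0.05 after Benjamini-Hochberg adjustment across the 20422 genes. The methods name Student's test, which was an alternative. Probe sets were tested likewise over all probe sets. The test was checked on simulated data. The markers, the 16 lists of related genes and cell type markers and the tests were chosen with earlier results of these data known. Named genes are the 9 markers, their fixed partners (Itga6, Itgav, Kitl, Prom2, Ceacam2, Cd44, Mme), list members called in at least 1 comparison (the 6 with the largest differences where there were more), and the 3 genes closest to each marker. Other genes named from the lists were chosen after their values were seen. The 22 alternatives tried include other normalization, probe set summaries, tests, array weights, a replicate block and leaving out each array. Protein sequences were not used here, and 1 gene of the lists is not reported here. The number of arrays limits the precision.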

Additional observations from a re-analysis of the deposited data

How the results depend on the processing

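The 4 markers Cd24a, Epcam, Kit and Ceacam1 were called under all 22 alternatives in both comparisons with D-TF-iPSC. The number of markers called between D-ME-iPSC and ME was 0 with all arrays, 3 at an unadjusted limma p under 0.05 and 7 with array weights, and leaving out 1 array gave 0 to 5, the 5 without the array labelled ME replicate 1. Between D-TF-iPSC and ME it was 4, or 8 with array weights, and 4 to 5 when 1 array was left out, with Itgb1 added without the array labelled ME replicate 1 and Prom1 (-1.14, adjusted p = 0.031) without ME replicate 2. Between the D-ME-iPSC and the D-TF-iPSC arrays it was 7, or 6 with the brightest probe set, 4 at an adjusted p under 0.01, and 4 to 7 when 1 array was left out. In those omissions the 4 arose when replicate 2 or 3 of either of these groups was left out, and leaving out replicate 1 of either gave 5. The methods' Student's test gave 7 after adjustment. Unadjusted it gave 8, with 7 higher and 1, Itgb1, lower (-0.16). With array weights, which gave ME replicates 1, 2 and 3 weights of 0.0658, 0.142 and 8.98, the ME group was close to replicate 3 alone, and Ly6a was called lower in D-ME-iPSC than in ME by -0.65. The brightest probe set of Itga2 differed by 1.35 between the D-ME-iPSC and the D-TF-iPSC arrays (limma, adjusted p = 0.14). No called value changed sign. Over single markers, 550 values kept their side of the threshold, 24 gained a call and 20 lost one. The cause of these changes was not tested.

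Arrays of the same replicate number did not deviate together (correlations of -0.18 to 0.16 over 9 pairs), and with the replicate number as a block the counts were 0, 4 and 7, so the block changed no count. The alternative of another background correction was not run because the deposited values had been corrected. No detection calls were used, so values of dim probe sets have no known floor.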

Other observations

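The 5 probe sets that Ly6a shares with Ly6c1 or Ly6c2 did not behave alike. The 2 shared by all 3 genes read 7.52 to 7.83 in D-ME-iPSC, 7.78 to 7.98 in D-TF-iPSC, 7.44 and 7.25 in the array labelled ME replicate 1, and 9.04 to 9.38 in ME replicates 2 and 3. The other 3 lay between 11.17 and 12.69 in all arrays. Ly6c2 alone, with 2 probe sets of its own, differed by -0.33 between the D-ME-iPSC and the D-TF-iPSC arrays (limma, adjusted p = 0.59).

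Markers of pluripotent cells were not called in any comparison of all 9 arrays (0 of 10 found), with list means of 5.91 to 6.02 in D-ME-iPSC, 5.93 to 6.05 in D-TF-iPSC and 5.91 to 6.22 in ME. Without the array labelled ME replicate 1, 3 of the 10 were called lower in D-ME-iPSC than in ME and 2 lower in D-TF-iPSC than in ME. Of 7 markers of epidermal keratinocytes, 1 was called higher in D-ME-iPSC than in the D-TF-iPSC arrays. It was Krt6a, a keratin also found in mammary progenitor cells, which read 10.13, 10.18 and 10.29 in D-ME-iPSC cells, 6.52, 6.39 and 6.45 in D-TF-iPSC and 10.13, 6.44 and 6.26 in ME replicates 1, 2 and 3 (a difference of 3.75, adjusted p = 0.018). The array labelled ME replicate 1 thus lay just below the D-ME-iPSC arrays, and the 2 other ME arrays lay within or just below the range of D-TF-iPSC.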
